A study of Mus musculus with 4 samples.

Results

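The mouse mitochondrial genome carries 37 annotated genes, and these were read from a gene-level RNA sequencing table of 40481 genes by the prefix mt- in their symbols. They comprise 13 mRNAs, 2 rRNAs and 22 tRNAs. The table came from type 1 innate lymphoid cells (ILC1s), which reside in tissues and are related to natural killer cells, gated here on CD49a. Control cells came from mice homozygous for a floxed Inpp4b allele (libraries 1 and 2). Cells labelled knockout carried the same floxed allele together with Ncr1-iCre, a recombinase driven from Ncr1, which encodes the activating receptor NKp46 (libraries 3 and 4). Both genotypes thus share the floxed allele, and the presence of iCre and the loss of Inpp4b cannot be told apart. The labels name liver as the tissue of library 1 only, and give no age, sex, batch or animal for any library. Whether the libraries derive from different mice is not given in the sources used here, and the p-values therefore reflect only how these samples vary, part of which may be technical.

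The libraries held 42380840 to 54878210 counts, and all 14 ILC1 markers examined were detected, with summed levels of 12002 to 12191 CPM (counts scaled to a library total of 1000000). Single markers within this sum moved in both directions, 8 being positive and 6 negative. Ncr1 was at 1767 and 1726 against 1219 and 1029 CPM (edgeR log2 fold change -0.60, adjusted p = 0.280). Ifng was at 103 and 73.8 against 145 and 164 CPM (edgeR log2 fold change 0.86, adjusted p = 0.277). Inpp4b itself was not lower in the knockout-labelled libraries, at 83.2 and 103.8 CPM in the controls against 144.5 and 82.2 CPM (edgeR log2 fold change 0.30, SE 0.28, adjusted p = 0.828). Its count covers the whole gene and so does not check the deletion of a part of it. Markers of monocytes and macrophages summed to 157.9 and 193.4 CPM in the controls and to 1079 and 1031 CPM in the knockout-labelled libraries. Of the 15 tested, 5 rose at an edgeR adjusted p under 0.05, where 0.141% of all genes tested rose, and none of the 16 listed was at 0 in every library. T cell markers summed to 2598 and 2365 CPM against 3000 and 3841 CPM, and 1 of the 10 tested rose at an edgeR adjusted p under 0.05. At an unadjusted edgeR p under 0.05, 6 of the 10 rose, against 4.48% of all genes tested. Their median log2 fold change was 0.82, with 2 negative. Cd3e was at 28.0 and 14.7 against 155 and 355 CPM, whereas Trbc1 was at 468 and 600 against 395 and 406 CPM. Hepatocyte markers summed to 522.8, 250.2, 461.1 and 377.1 CPM in libraries 1 to 4. Erythroid and platelet markers summed to 477.8, 304.5, 275.1 and 911.2 CPM, highest in library 4, which also had the highest share of mitochondrial mRNAs. The part of such cells in the mitochondrial values below was not tested.

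Mitochondrial DNA is a small circular genome in the organelle's matrix, copied and transcribed apart from the nuclear chromosomes. The nuclear-encoded polymerase POLRMT, with TFAM and TFB2M, transcribes both strands into long precursors. The tRNAs that lie between most genes are cut out of these precursors and so release the rRNAs and mRNAs. The mRNAs encode core subunits of respiratory complexes I, III and IV and of the ATP synthase (complex V), while complex II is wholly nuclear-encoded. In lymphocytes, mitochondrial translation and respiration are known to bear on proliferation, cytokine production and survival. The sorted cells here are a bulk sample, in which fewer mitochondria, fewer transcripts per mitochondrion and a change in the cells present cannot be told apart.

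Of the 37 genes, 28 are encoded in the sense of the heavy-strand transcript and 9 in that of the light-strand transcript, namely mt-Nd6 and 8 tRNAs. All lie on the mitochondrial chromosome of mm10 (GRCm38), written chrM, and none holds an intron. Gene bodies are packed so closely that neighbours share bases, which limits how reads can be assigned to 1 gene. The junction of mt-Atp8 and mt-Atp6, which encode the ATP synthase subunits a bicistronic mRNA carries together, is shown on the plus strand at chrM:7907-7989, with the 43 bases that belong to both genes in capitals. At the junction of mt-Nd4l and mt-Nd4, a complex I pair on another bicistronic mRNA (chrM:10147-10193, plus strand), the shared stretch is 7 bases.
mt-Atp8 to mt-Atp6 junction: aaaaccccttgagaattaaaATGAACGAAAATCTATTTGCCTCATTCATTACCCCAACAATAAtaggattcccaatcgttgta
mt-Nd4l to mt-Nd4 junction: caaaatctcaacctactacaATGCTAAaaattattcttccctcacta

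A second ambiguity concerns copies of mitochondrial DNA in the nuclear genome. A block of 7 annotated pseudogenes on the minus strand of chromosome 1 (chr1:24611535-24616197) follows the mitochondrial gene order from mt-Co1 to mt-Nd4. In 5 of the 7 copies every aligned base equalled the mitochondrial gene. The mt-Nd3 copy, Gm28438, differed from mt-Nd3 at 1 of 345 bases, T3C, counted from 1 at the gene's first base and lying at base 9461 of chrM. The first 60 bases of both genes are given here with that base in capitals (mt-Nd3 at chrM:9459-9518, plus strand; Gm28438 at chr1:24613060-24613119, minus strand). The first 60 bases of mt-Nd4l (chrM:9877-9936) are those of its copy Gm10222 as well.
mt-Nd3: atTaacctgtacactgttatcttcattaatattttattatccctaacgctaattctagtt
Gm28438: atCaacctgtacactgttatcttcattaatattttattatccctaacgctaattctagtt
mt-Nd4l and Gm10222: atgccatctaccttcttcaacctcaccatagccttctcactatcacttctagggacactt
The tRNA sequences are shown because counts came mainly from 1 of these genes and were absent for others. The 2 most counted tRNAs are mt-Tp, the tRNA of proline (chrM:15356-15422, minus strand), and mt-Tq, that of glutamine (chrM:3772-3842, minus strand). They are set beside mt-Td, that of aspartate (chrM:6942-7011, plus strand), which had no count in any library. Capitals mark the anticodon. All sequences are those of GENCODE M21 transcripts on mm10.
mt-Tp: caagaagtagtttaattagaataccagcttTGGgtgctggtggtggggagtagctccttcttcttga
mt-Tq: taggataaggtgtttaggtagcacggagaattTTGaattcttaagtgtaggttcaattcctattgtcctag
mt-Td: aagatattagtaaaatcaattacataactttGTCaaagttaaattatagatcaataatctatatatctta

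Mitochondrial transcripts made up about 1 in 100 counts. Their share of all counts was 0.855% and 0.924% in the controls and 0.948% and 0.990% in the knockout-labelled libraries. The means were 0.889% ± 0.0485 and 0.969% ± 0.0293 (SD, n = 2 each). The groups did not overlap, but the exact two-sided permutation test gave p = 0.333, the smallest that 2 libraries against 2 can give. With 401943 to 535781 mitochondrial counts per library, counting error was small beside the spread between replicates. In library 1, for instance, the 95% Wilson interval of the share ran from 0.853% to 0.857%.

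The classes did not move together across libraries. The mRNAs took 0.648% and 0.736% of counts in the controls and 0.665% and 0.803% in libraries 3 and 4 (0.692% ± 0.0623 against 0.734% ± 0.0971, SD, n = 2 each, exact permutation p = 0.667). For the rRNAs the shares were 0.203% and 0.183% against 0.280% and 0.182% (0.193% ± 0.0138 against 0.231% ± 0.0689, SD, n = 2 each, exact permutation p = 1). Library 3 therefore had the highest rRNA share, while library 4 had the highest mRNA share. Among mitochondrial counts alone, rRNAs accounted for 23.7%, 19.8%, 29.5% and 18.4% in libraries 1 to 4. The tRNAs held 0.00436% and 0.00438% of counts in the controls against 0.00311% and 0.00464%, under 1% of mitochondrial counts in every library.

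**Figure D1:**
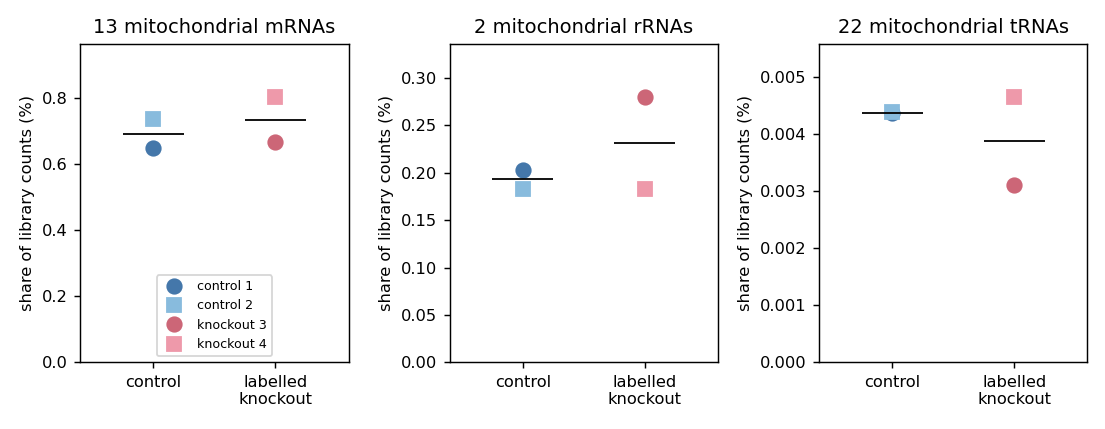
Share of library counts (%, each axis from 0) on the mitochondrial mRNAs, rRNAs and tRNAs, by genotype; each point is 1 library and each line the mean of 2 libraries. Library 3, labelled knockout, is highest for rRNAs (0.280%) and lowest for tRNAs (0.00311%), while library 4 is highest for mRNAs (0.803%).

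The mRNAs are taken by complex, with values in CPM of the library total for libraries 1 and 2 (control) and then 3 and 4 (labelled knockout). Of the complex I subunits, which form the membrane arm of NADH dehydrogenase, mt-Nd1 (ENSMUSG00000064341, chrM:2751-3707) had the highest level, at 1025 and 1065 CPM against 1055 and 1182 CPM. Only library 4 stood above the rest, and the edgeR log2 fold change was 0.14 (SE 0.15, adjusted p = 0.870). mt-Nd2 (ENSMUSG00000064345, chrM:3914-4951) was at 448 and 461 CPM against 462 and 544 CPM. Its groups did not overlap, yet libraries 2 and 3 lay side by side (edgeR log2 fold change 0.19, SE 0.16, adjusted p = 0.804). mt-Nd4 (ENSMUSG00000064363, chrM:10167-11544) was at 458 and 485 CPM against 440 and 515 CPM, with both knockout values outside the control range on opposite sides. mt-Nd5 (ENSMUSG00000064367, chrM:11742-13565) was at 501 and 566 CPM against 503 and 512 CPM, and library 2 alone stood higher.

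The 2 shortest complex I genes had few counts. mt-Nd3 (ENSMUSG00000064360, chrM:9459-9806) had 141 and 60 counts in the controls and 88 and 98 in the knockout-labelled libraries, or 2.57, 1.24, 2.08 and 1.81 CPM. Both values of the knockout-labelled libraries fell within the range of the controls. mt-Nd4l (ENSMUSG00000065947, chrM:9877-10173) had 96, 62, 102 and 46 counts, or 1.75, 1.28, 2.41 and 0.850 CPM. Libraries 3 and 4 were its highest and lowest, 2.83-fold apart, which was the widest replicate gap of any mRNA. At these low counts the 95% intervals of the log2 fold change ran from -1.54 to 1.72 for mt-Nd3 and from -1.76 to 2.03 for mt-Nd4l.

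mt-Cytb (ENSMUSG00000064370, chrM:14145-15288), which encodes the only mitochondrially encoded subunit of complex III, was at 1732 and 2096 CPM in the controls and 1805 and 2284 CPM in the knockout-labelled libraries. The libraries alternated, with 1 and 3 low and 2 and 4 high, and the edgeR log2 fold change of 0.14 (SE 0.21, adjusted p = 0.931) was under the spread between replicates. The catalytic core of complex IV showed the same order for mt-Co1 (ENSMUSG00000064351, chrM:5328-6872), with 1862 and 2340 CPM against 1989 and 2642 CPM. Its edgeR log2 fold change was 0.18 (SE 0.23, adjusted p = 0.905). mt-Co1 and mt-Cytb together took 55.5%, 60.3%, 57.0% and 61.4% of the mRNA counts in libraries 1 to 4.

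The other complex IV subunits ran in the opposite order. mt-Co2 (ENSMUSG00000064354, chrM:7013-7696), whose product receives electrons from cytochrome c, was at 60.9 and 40.4 CPM against 54.0 and 48.0 CPM. mt-Co3 (ENSMUSG00000064358, chrM:8607-9390) was at 95.2 and 75.3 CPM against 89.5 and 81.8 CPM. For both, the knockout-labelled libraries lay inside the control range, with log2 fold changes of 0.06 (SE 0.22) and 0.05 (SE 0.16). The proton channel subunit of ATP synthase, mt-Atp6 (ENSMUSG00000064357, chrM:7927-8607), was likewise higher in libraries 1 and 3, at 141 and 115 CPM against 131 and 110 CPM (log2 fold change -0.04, SE 0.16). mt-Atp8 (ENSMUSG00000064356, chrM:7766-7969), its partner on the bicistronic mRNA, had 141 and 102 counts against 142 and 145, or 2.57, 2.10, 3.35 and 2.68 CPM. The groups of mt-Atp8 did not overlap, and of the 20 genes tested it alone had a difference of group means above the larger replicate difference. Its fit was nonetheless wide (edgeR log2 fold change 0.41, SE 0.54, 95% interval -0.90 to 1.72, adjusted p = 0.916).

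The large rRNA, mt-Rnr2 (ENSMUSG00000064339, chrM:1094-2675), is the 16S rRNA of the mitochondrial ribosome. It was at 1803 and 1630 CPM in the controls and 2556 and 1659 CPM in the knockout-labelled libraries. Library 3 stood apart and library 4 lay inside the control range (log2 fold change 0.33, SE 0.20, 95% interval -0.14 to 0.81). Its edgeR adjusted p of 0.6765 was the smallest of the mitochondrial genes tested. Without library 3 its log2 fold change was 0.02. The small rRNA, mt-Rnr1 (ENSMUSG00000064337, chrM:70-1024), or 12S rRNA, was at 224 and 202 CPM against 242 and 165 CPM. Libraries 3 and 4 were thus its highest and lowest (edgeR log2 fold change -0.03, SE 0.19, adjusted p = 0.994).

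Both rRNAs are cut from the same precursor, and a ratio of counts within a library does not depend on its scaling. mt-Rnr2 had 8.06 times the counts of mt-Rnr1 in both controls, and 10.5 and 10.1 times in libraries 3 and 4. The difference was 0.35 on the log2 scale, and the groups did not overlap (exact two-sided permutation p = 0.333, the smallest possible). Per kilobase, mt-Rnr2 averaged 1209 CPM and mt-Rnr1 218 CPM over the 4 libraries. The sum of mRNA counts was 3.20, 4.02, 2.38 and 4.40 times that of the rRNAs in libraries 1 to 4, a ratio in which the knockout libraries lay on either side of the controls (exact permutation p = 1).

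tRNA counts came mainly from 1 gene. mt-Tp (ENSMUSG00000064372) held 1774 and 1965 counts in the controls and 1058 and 2277 in the knockout-labelled libraries, between 74.2% and 92.6% of all tRNA counts. In CPM it was at 32.3 and 40.5 against 24.96 and 42.1, with the knockout-labelled libraries lowest and highest (edgeR log2 fold change -0.07, SE 0.33, adjusted p = 0.990). mt-Tp is the last annotated gene before the non-coding control region and follows mt-Cytb and mt-Tt on the opposite strand. The counts of mt-Cytb were 53.6, 51.7, 72.3 and 54.3 times those of mt-Tp in libraries 1 to 4. Whether the counting used strand is not given in the sources used here, so reads of mt-Tp and of transcripts that cross it in the other sense cannot be told apart.

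Of the other 21 tRNAs, 4 had at least 10 counts in at least 2 libraries. mt-Tq, on the opposite strand to its neighbour mt-Ti, had 390 and 93 counts against 157 and 154. mt-Ts1, a serine tRNA whose gene abuts the end of mt-Co1 in the opposite sense, had 80 and 16 counts against 38 and 30. mt-Tl1, the leucine tRNA between mt-Rnr2 and mt-Nd1, had 68 and 12 counts against 30 and 15. For each of these 3 genes library 1 was highest and library 2 lowest, so that the knockout-labelled libraries fell inside a wide control range. mt-Te, the glutamate tRNA between mt-Nd6 and mt-Cytb, had 36 and 12 counts against 12 and 16, and library 1 alone was high. The log2 fold changes of the 4 ran from -0.57 to -0.23, with SEs from 0.67 to 1.17. Replicates differed by 1.25-fold to 5.01-fold in controls and 1.04-fold to 2.55-fold in the knockout-labelled libraries over the 5 tRNAs tested, against 1.03-fold to 2.08-fold and 1.02-fold to 2.83-fold over the mRNAs.

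The 17 remaining tRNAs did not pass the filter on low counts. Together they had 43, 24, 22 and 20 counts in libraries 1 to 4, and the highest count of any was 12. In all libraries mt-Td, mt-Tk (lysine) and mt-Tg (glycine) had 0 counts. A count of 0 allows a level of up to 0.0547, 0.0619, 0.0708 and 0.0554 CPM in libraries 1 to 4, taken as 3 counts of the total and covering counting error only. These genes are absent from the test and give no comparison.

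The light strand contributes 1 mRNA. mt-Nd6 (ENSMUSG00000064368, chrM:13552-14070), a complex I subunit, was at 148 and 113 CPM in the controls and 118 and 103 CPM in the knockout-labelled libraries. Library 1 was highest and library 2 lay between libraries 3 and 4 (edgeR log2 fold change -0.19, SE 0.16, 95% interval -0.59 to 0.20, adjusted p = 0.807). The 12 heavy-strand mRNAs together had 42.7, 64.4, 55.4 and 77.2 times the counts of mt-Nd6 in libraries 1 to 4. This balance of the strands differed by 0.32 on the log2 scale between genotypes, less than between the controls (exact permutation p = 0.667). Taken as mt-Nd6 over the heavy-strand mRNAs, the log2 difference was -0.32 with all libraries, -0.023 without library 1 and -0.62 without library 2. The log2 fold change of mt-Nd6 itself was -0.048 and -0.32 without these libraries. mt-Nd6 overlaps mt-Nd5 by 14 bases in the opposite sense, and without a stated strand setting the reads of both senses there cannot be told apart.

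Per kilobase of gene, levels of the mRNAs spanned a 327-fold range, from 5.29 CPM per kilobase for mt-Nd4l to 1730 for mt-Cytb (means over the 4 libraries). After mt-Cytb came mt-Co1 (1429) and mt-Nd1 (1130), then mt-Nd2 (461), mt-Nd4 (345), mt-Nd5 (285) and mt-Nd6 (232). The lower levels were those of mt-Atp6 (183), mt-Co3 (109), mt-Co2 (74.3), mt-Atp8 (13.1), mt-Nd3 (5.53) and mt-Nd4l (5.29). Of the 12 pairs of neighbours in this order, 5 had overlapping ranges over the 4 libraries: mt-Cytb and mt-Co1, mt-Co1 and mt-Nd1, mt-Nd5 and mt-Nd6, mt-Nd6 and mt-Atp6, and mt-Nd3 and mt-Nd4l. The other 7 did not overlap. mt-Atp8 and mt-Atp6, carried on 1 mRNA, differed 13.9-fold in level per kilobase.

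This order was set beside how far each sequence can be told from nuclear copies. Every window of 100 bases of each gene was searched, on both strands, in all other annotated transcripts. For mt-Co2, mt-Atp6, mt-Co3, mt-Nd3 and mt-Nd4l fewer than 5% of windows were found nowhere else (0.513%, 0.515%, 0.146%, 2.41% and 1.52%). These 5 genes averaged 5.29 to 183 CPM per kilobase. For mt-Nd4 the share was 39.2% and for mt-Co1 69.2%. Of the 6 mRNAs with over 95% of windows unique, 5 averaged 232 to 1730 CPM per kilobase, and the exception was mt-Atp8. Across the 13 mRNAs, as a description over genes of the same libraries, Spearman's rho between the share of unique windows and the level was 0.50. Without mt-Atp8, left out as that exception, rho was 0.69. Levels also separated by gene length. The mRNAs of 957 to 1824 bases averaged 285 to 1730 CPM per kilobase. Those of 204 to 784 bases, mt-Atp8 included, averaged 5.29 to 232. The part of length in these levels was not tested. How reads that map to several places were counted is not given in the sources used here, and its part in these levels was not tested.

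**Figure D2:**
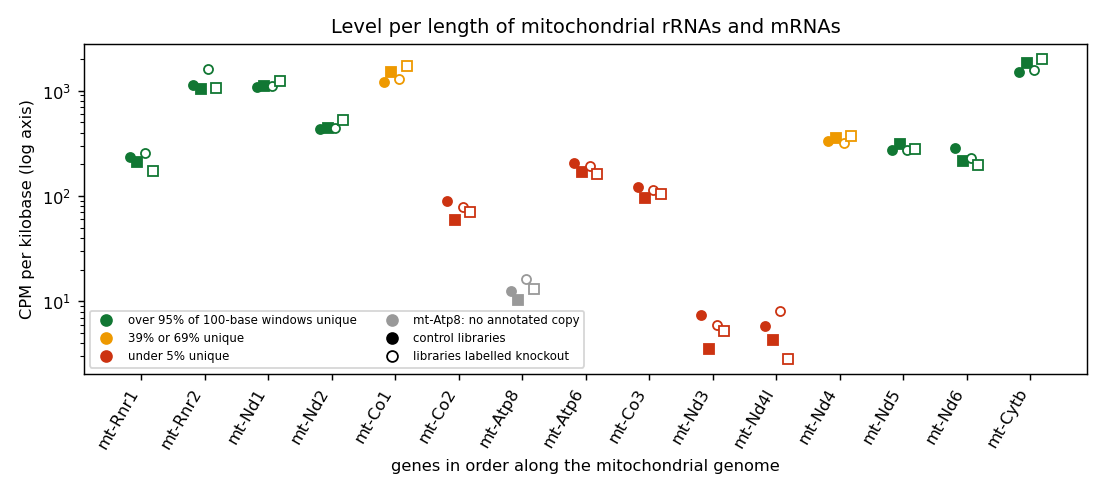
CPM per kilobase (log axis) of the rRNAs and mRNAs in their order along the mitochondrial genome; each point is 1 library, filled for control and open for knockout-labelled libraries (circles libraries 1 and 3, squares 2 and 4), and colour gives the share of 100-base windows found in no other annotated transcript. The 5 genes with under 5% of unique windows average 5.29 to 183 CPM per kilobase, below the unique mRNAs other than mt-Atp8. By these averages the mRNAs of 204 to 784 bases also all lie below those of 957 to 1824 bases.

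The nuclear copies themselves carried counts. The block of 7 held 0.0588%, 0.0445%, 0.0515% and 0.0471% of all counts in libraries 1 to 4. Of the 5 copies identical to their source over the aligned bases, 3 had counts near those of the mitochondrial gene in every library. Gm28661 had 1.21, 1.17, 1.16 and 1.21 times the counts of mt-Co2 in libraries 1 to 4. Gm10925 had 1.31, 1.21, 1.24 and 1.22 times those of mt-Atp6, and Gm28437 had 1.13, 1.05, 1.03 and 0.949 times those of mt-Co3. These ratios varied less between libraries than the genes did. The mt-Nd4l copy Gm10222, also identical, had 178, 122, 101 and 84 counts, or 1.85, 1.97, 0.990 and 1.83 times those of its source.

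The mt-Nd3 pair did not follow this pattern. Gm28438, which differs from mt-Nd3 by T3C alone, had 2091 and 2313 counts in the controls and 2243 and 4129 in the knockout-labelled libraries, against 141, 60, 88 and 98 for mt-Nd3. Its counts were 14.8, 38.6, 25.5 and 42.1 times those of mt-Nd3 in libraries 1 to 4. Per kilobase Gm28438 averaged 156 CPM, a level between those of mt-Co3 and mt-Atp6. Gm29216, which covers the last 492 bases of mt-Co1 with 6 differences, had 0.0417 to 0.0882 times the counts of that gene. Gm28439 is identical to the first 876 bases of mt-Nd4, yet had only 0.0261 to 0.0421 times its counts.

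mt-Atp8 has no annotated copy in the block. Between Gm10925 and Gm28661, the copies of its neighbours mt-Atp6 and mt-Co2, lie 233 unannotated bases, where the mitochondrial genome has 230 bases between mt-Co2 and mt-Atp6. A further mt-Co1 copy, Gm13340 on chromosome 2, had 5386, 3724, 3313 and 4400 counts in libraries 1 to 4. Of the 7 copies in the block, edgeR called 0 between genotypes at an adjusted p under 0.05, against 0.155% of all 14863 genes tested, and 0 at an unadjusted p under 0.05, against 9.65%. Gm28438 had the smallest adjusted p (0.5392), with 38.1 and 47.7 CPM in the controls against 52.9 and 76.3 CPM (log2 fold change 0.64, SE 0.28).

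**Figure D3:**
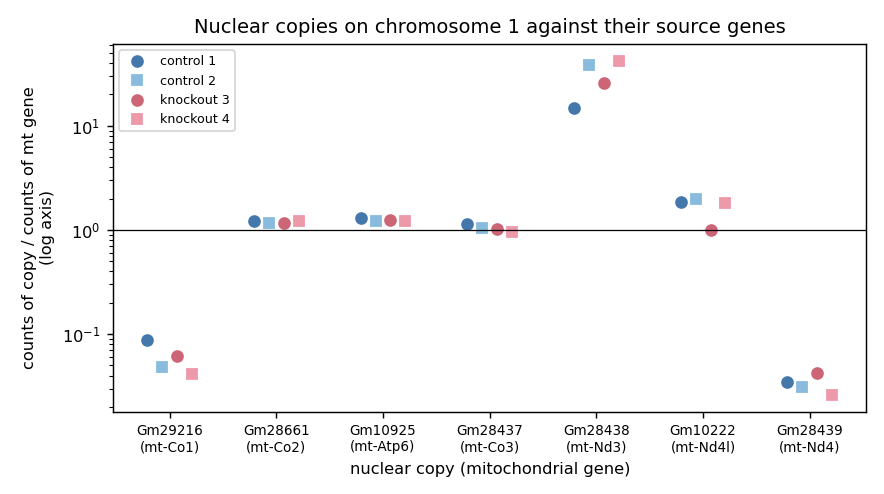
Counts of each nuclear copy in the chromosome 1 block divided by the counts of its mitochondrial source gene (log axis, line at equal counts); each point is 1 library, with circles for libraries 1 and 3 and squares for 2 and 4. Copies of mt-Co2, mt-Atp6 and mt-Co3 lie near 1, and the mt-Nd3 copy Gm28438 lies at 14.8 to 42.1.

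Between genotypes, edgeR called 0 of the 20 mitochondrial genes tested at an adjusted p under 0.05, where it called 0.155% of all 14863 genes tested. At an unadjusted p under 0.05 the count was also 0 of 20, against 9.65% of all genes, and the smallest unadjusted p was 0.1398. DESeq2 called 0 as well, against 3.01% of all genes it tested. In CPM, 2 of the 20 had groups that did not overlap, against 40.4% of all genes tested. These were mt-Nd2 and mt-Atp8, both higher in the knockout-labelled libraries, a direction in which 17% of all genes did not overlap. That share is below the background, and 19 of the 20 members had a difference of group means under the larger replicate difference, against 72.6% of all genes.

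The genes tested were 13 mRNAs, 2 rRNAs and 5 tRNAs, and 11 of these 20 had a positive log2 fold change, against 48.7% of all genes. By class, 10 of 13 mRNAs were positive, the others being mt-Atp6, mt-Nd5 and mt-Nd6, and the mRNA median was 0.09. Medians by complex were 0.09 for complex I (7 genes), 0.14 for complex III (1), 0.06 for complex IV (3) and 0.18 for complex V (2), beside -0.01 over all genes tested. Without library 4 the mRNA median was -0.004, and leaving out each library in turn moved it from there to 0.12. In the same way the medians ran from -0.015 to 0.12 for complex I, from -0.12 to 0.35 for complex III, from -0.048 to 0.17 for complex IV and from 0.057 to 0.27 for complex V. The 5 tRNAs were all negative with a median of -0.39. Without library 1, however, 4 of the 5 were positive, at 0.95 for mt-Tl1, 0.75 for mt-Tq, 1.10 for mt-Ts1 and 0.21 for mt-Te. The 2 rRNAs had a median of 0.15. None of these values passed the test. For the 3 most abundant mRNAs the 95% interval of the log2 fold change was -0.36 to 0.73 for mt-Co1, -0.36 to 0.63 for mt-Cytb and -0.23 to 0.51 for mt-Nd1.

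**Figure D4:**
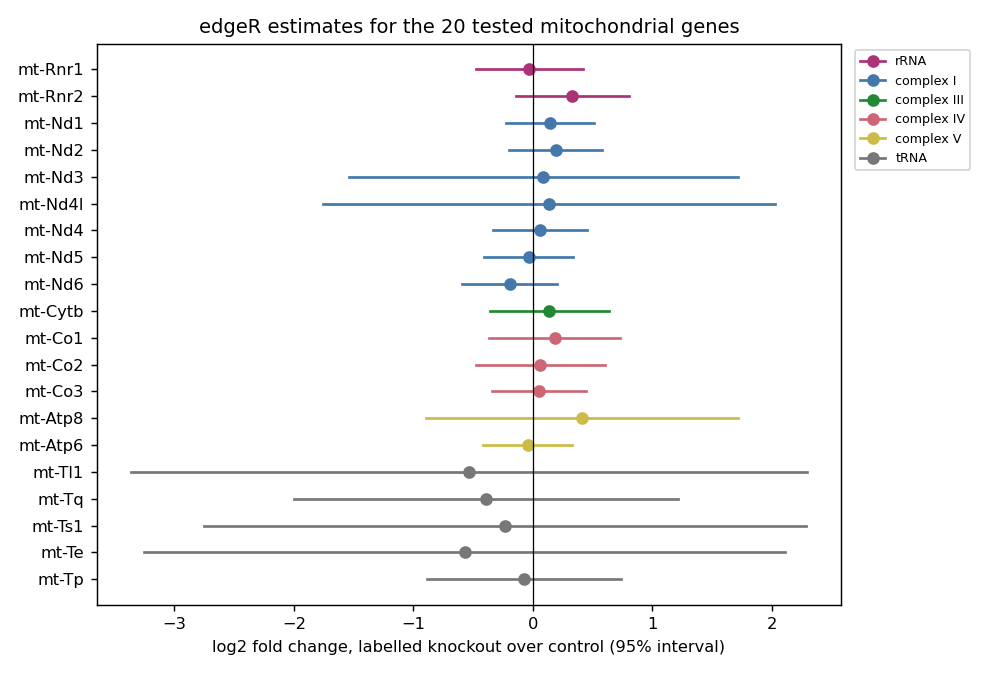
edgeR log2 fold change (knockout-labelled libraries over control) of the 20 mitochondrial genes tested, coloured by class or complex; points are estimates and bars 95% intervals from 2 libraries a group. Every interval includes 0, and the intervals of mt-Nd3, mt-Nd4l, mt-Atp8 and the tRNAs are the widest.

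The spread within genotypes had an order of its own. In the deposited column names libraries 1 and 3 are each numbered as the first, and 2 and 4 as the second, of their genotype, while the titles number them 1 to 4. Of the 20 genes tested, 12 were higher in library 1 than 2 and in library 3 than 4. These were mt-Rnr1, mt-Rnr2, mt-Tl1, mt-Tq, mt-Ts1, mt-Co2, mt-Atp8, mt-Atp6, mt-Co3, mt-Nd3, mt-Nd6 and mt-Nd4l. Another 7 were lower in both, namely mt-Nd1, mt-Nd2, mt-Co1, mt-Nd4, mt-Nd5, mt-Cytb and mt-Tp. mt-Te alone differed in sign. The 2 replicate differences thus had the same sign in 19 of 20 mitochondrial genes and in 57.1% of all genes tested, given here as a description with no test. The 2 sets of mRNAs also separated by gene length, a pattern noticed after the values were seen. The 6 mRNAs lower in libraries 1 and 3 were the 6 longest, at 957 to 1824 bases, and the 7 higher ones were the 7 shortest, at 204 to 784 bases. The rRNAs did not follow it, since mt-Rnr2, with 1582 bases, was among the higher. Of the 7 shorter mRNAs, 5 are also those with under 5% of unique windows, while mt-Nd6 and mt-Atp8 are unique in every window among annotated transcripts. The unannotated bases between Gm10925 and Gm28661, at the place of mt-Atp8 in the gene order, were not searched. The part of length in this order was not tested.

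The median fold between replicates was 1.26 in controls and 1.22 in the knockout-labelled libraries over the 20 genes, against 1.29 and 1.33 over all genes tested. The chi-square of the replicates' counts per gene, which grows with the counts, was 279.6 in the controls and 872.6 in the knockout-labelled libraries over the mitochondrial genes, against 90.9 and 83.7 over all genes. The median fold between the group means of the same 20 genes was 1.08. The highest value fell in library 1 for 9 genes, in library 2 for 1, in library 3 for 4 and in library 4 for 6.

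**Figure D5:**
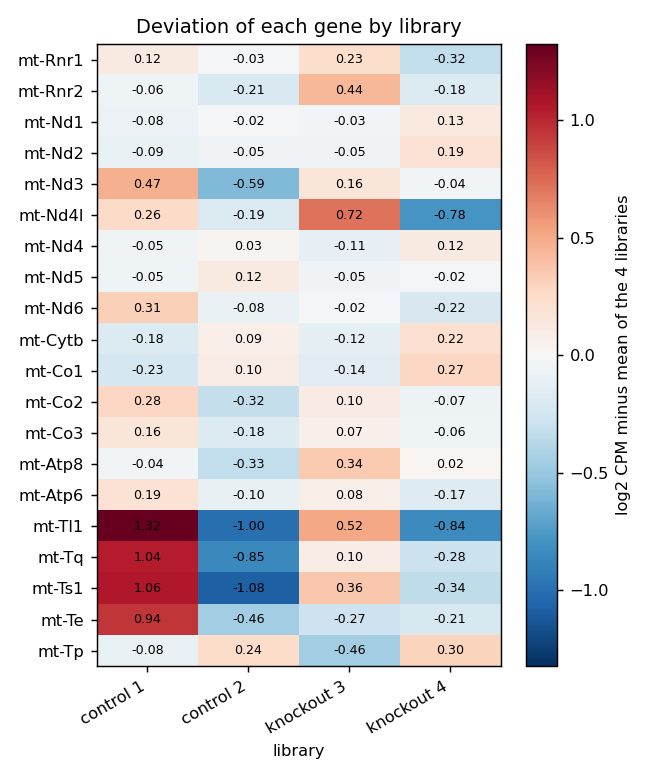
Deviation of each tested mitochondrial gene (rows) in each library (columns) from its mean over the 4 libraries, on the log2 CPM scale; red is above and blue below the mean, and the numbers give the values. mt-Tl1, mt-Tq, mt-Ts1 and mt-Te are highest in library 1, and mt-Rnr2 in library 3.

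Respiratory complexes also need subunits encoded in the nucleus, and their mRNAs were compared with the mitochondrial ones. Nuclear complex I subunits summed to 4465 and 4384 CPM in the controls and 4982 and 4922 CPM in the knockout-labelled libraries, beside 2585 and 2691 against 2582 and 2859 CPM for the mitochondrial ones. For complex III the nuclear sums were 1538 and 1392 against 1590 and 1603 CPM, and mt-Cytb alone exceeded them in every library. Complex IV had nuclear sums of 2355 and 2203 against 2704 and 2655 CPM, near the mitochondrial sums of 2018 and 2456 against 2133 and 2772 CPM. Complex V was the exception, with 4138 and 3924 against 4799 and 4715 CPM from nuclear genes. mt-Atp6 and mt-Atp8 summed to 113 to 144 CPM in any library. These sums are not scaled to gene length. Of the mitochondrial genes in them, mt-Co2, mt-Co3, mt-Atp6, mt-Nd3 and mt-Nd4l had under 5% of 100-base windows unique. The nuclear copy Gm10925 had 1.21 to 1.31 times the counts of mt-Atp6, and the part of copies in these sums was not tested. The log2 ratio of mitochondrial to nuclear sums differed between genotypes by -0.12, -0.03, -0.11 and -0.32 for complexes I, III, IV and V (exact permutation p = 0.667, 1, 0.667 and 0.333).

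Of the 76 nuclear subunits of these 4 complexes, 69 had a positive log2 fold change, against 48.7% of all genes tested, with a median of 0.25, and edgeR called 0. At an unadjusted p under 0.05, 8 were higher, against 4.48% of all genes. Ndufs4, a complex I accessory subunit, was at 89.4 and 81.3 CPM in the controls and 116 CPM in both knockout-labelled libraries (edgeR log2 fold change 0.49, SE 0.15, adjusted p = 0.384). Uqcrh, the hinge subunit of complex III, was at 198 and 190 against 243 and 228 CPM (edgeR log2 fold change 0.32, SE 0.13, adjusted p = 0.507). Cox6b1 of complex IV was at 210 and 190 against 245 and 258 CPM, and Atp5h of complex V at 248 and 255 against 343 and 336 CPM (adjusted p = 0.464 and 0.367 in edgeR). These 4 genes are named for the smallest p among the genes of their lists, and their groups did not overlap, as for 17% of all genes in the same direction. Sdhc of the wholly nuclear complex II was at 78.4 and 73.6 against 111 and 104 CPM (edgeR log2 fold change 0.54, SE 0.15, adjusted p = 0.347). The markers of monocytes and macrophages, higher in the same libraries, had a median log2 fold change of 2.29, and their part in these values was not tested.

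The nuclear genes that copy, transcribe, process and translate the mitochondrial genome were not called by edgeR after its filter on low counts, while DESeq2 and edgeR without that filter each called a few. Over 14 lists, these and the subunits above held 297 genes tested, of which edgeR called 0, while 9 were higher and 9 lower unadjusted, at p under 0.05, where 4.48% of all genes tested were higher and 5.17% lower. Of the 10 transcription genes, 8 were positive, against 48.7% of all genes tested, and the median was 0.23. Polrmt, the polymerase gene, was one of the other two, at 37.2 and 32.4 CPM in the controls and 19.1 and 27.1 CPM in the knockout-labelled libraries (edgeR log2 fold change -0.54, SE 0.28, adjusted p = 0.612). Tfam, which encodes the packaging and initiation factor, was at 62.2 and 47.9 against 54.7 and 49.9 CPM, and Tfb2m, the gene of the initiation factor that opens the promoter, at 16.7 and 17.9 against 18.7 and 15.7 CPM. For both, groups overlapped.

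Genes of mitochondrial RNA processing and decay (22 tested) had a median of 0.02. Angel2 alone was lower at an unadjusted p under 0.05 in edgeR, where 5.17% of all genes tested were lower. Lrpprc, whose product stabilises mitochondrial mRNAs, was at 8.64 and 14.1 against 13.7 and 18.2 CPM, and its partner Slirp at 28.2 and 24.3 against 22.3 and 20.8 CPM. Mtpap, the mitochondrial poly(A) polymerase gene, was at 47.6 and 48.4 against 56.8 and 45.6 CPM. Pnpt1, the gene of the RNA-degrading PNPase, was at 29.1 and 27.7 against 31.0 and 27.7 CPM. Supv3l1, the gene of its helicase partner, had 9.15 and 2.56 CPM in the controls and 2.60 and 0.554 CPM in the knockout-labelled libraries, a spread that its SE of 0.90 reflects (edgeR adjusted p = 0.586).

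The protein synthesis genes split by list. Mitochondrial ribosomal proteins (78 tested) had 61 positive values, against 48.7% of all genes tested, and a median of 0.14. By contrast, 17 of 22 mitochondrial aminoacyl-tRNA synthetases were negative, with a median of -0.26. In neither list was a gene called or under an unadjusted p of 0.05. Translation factors (16 tested) had a median of -0.19 with 2 lower unadjusted, rRNA and tRNA modification genes (27 tested) had -0.03 with 2 lower unadjusted, and mitochondrial DNA maintenance genes (17 tested) had -0.09 with 3 lower unadjusted. Biogenesis regulators (9 tested) had a median of -0.21 with 1 lower unadjusted, and general mitochondrial mass genes (19 tested) had 0.14 with none. Of all genes tested, 5.17% were lower at an unadjusted p under 0.05 in edgeR.

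DESeq2 called 3 of the 297 genes, all lower, where it called 1.24% of all genes lower. Polg2, the accessory subunit gene of the mitochondrial DNA polymerase, was at 16.7 and 22.5 CPM in the controls and 6.49 and 7.93 CPM in the knockout-labelled libraries (edgeR log2 fold change -1.40, SE 0.34, edgeR adjusted p = 0.306, DESeq2 adjusted p = 0.00921). Gfm2, the gene of a factor that recycles mitochondrial ribosomes, was at 66.2 and 95.2 against 34.2 and 44.3 CPM (edgeR log2 fold change -1.001, SE 0.28, edgeR adjusted p = 0.358, DESeq2 adjusted p = 0.0458). Myc, a transcription factor gene listed for its part in mitochondrial biogenesis, was at 163 and 188 against 87.4 and 85.8 CPM (edgeR log2 fold change -0.98, SE 0.17, edgeR adjusted p = 0.182, DESeq2 adjusted p = 0.000572). In all 3 the groups did not overlap, as for 23.3% of all genes tested in the same direction. edgeR did not call them after its filter on low counts, but with no filter, where 1.1% of all genes were called lower, it called all 3 lower (adjusted p = 6.7e-05 for Myc, 0.00123 for Gfm2 and 0.0139 for Polg2). The fourth such call was Cyc1, the cytochrome c1 gene of complex III, named after its values were seen (adjusted p = 0.0125 with no filter and 0.736 with it). Cyc1 was at 77.9 and 15.1 CPM in the controls and 29.1 and 14.5 CPM in the knockout-labelled libraries, so that its groups overlapped and library 1 alone was high.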

How the data were processed

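The values deposited by the authors were raw counts of reads for each gene, with 1 column a library. The submitters' processing notes name the mm10 assembly and the tools STAR, featureCounts, Subread, DESeq2 and bcl2fastq. The annotation, the strand setting and the treatment of reads that map to several places are not given in the sources used here. Per the labels' protocols, total RNA was made into low-input SMARTer libraries. The table's 40757 lines held 276 repeated lines with identical counts, which were dropped.

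The filterByExpr filter was applied to genes, libraries were scaled with TMM factors (0.9565 to 1.0571) and genotypes compared with edgeR 4.0.16 (robust quasi-likelihood test, two-sided, genotype as the only term, 2 residual degrees of freedom) in R 4.3.3. Benjamini-Hochberg adjustment ran over 14863 genes with a threshold of 0.05. CPM values are counts scaled to a library total of 1000000, with no TMM factor. Lengths, positions and sequences came from GENCODE M21. Single values were compared with the exact permutation test, which cannot go below p = 0.333 here. The intervals of shares are Wilson intervals and cover counting error only, since the reads carry no molecular identifiers and are not independent. Replicates differed far beyond sampling noise (chi-square per gene 90.9 in controls and 83.7 in the libraries labelled knockout).

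The members and gene lists were chosen with earlier results of these data known. From each nuclear list up to 3 genes with the smallest p were named, and Polrmt, Tfam, Tfb2m, Lrpprc, Slirp, Mtpap, Pnpt1, Supv3l1 and Inpp4b always; Gm13340 and Gm10222 were named after their values were seen. On simulated data of 14271 genes, the edgeR steps recovered 28.8%, 86.6% and 97% of genes changed by 1, 2 and 3 on the log2 scale. False calls were 10.7% of all calls, above the adjusted p threshold of 0.05. The changed genes were drawn only from those above a floor in mean CPM. These recovery rates therefore do not cover mt-Atp8, mt-Nd3, mt-Nd4l or the tested tRNAs other than mt-Tp, which lie below it. Alternatives were other scalings and filters, DESeq2 1.42.0, limma-voom (limma 3.58.1), non-robust edgeR, other denominators of the shares, other mRNA sums and each library left out. A block on the column-name numbers was added after the data were seen.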

Additional observations from a re-analysis of the deposited data

How the results depend on the processing

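The count of mitochondrial genes called was 0 under every alternative fitted. For the 297 nuclear genes it was 4 with no filter on low counts and 3 with DESeq2, against 0. The 4 were Myc, Gfm2, Polg2 and Cyc1, and the first 3 of these were those of DESeq2. Genes called over the whole table ranged from 0 to 563. The median of all genes moved by under 0.1 on the log2 scale under the other scalings. With library totals alone the mRNA median was 0.03.

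Among the mitochondrial genes and the listed nuclear genes named by rule, signs of small log2 fold changes turned under 4 alternatives. With limma-voom mt-Nd4l was at -0.076. Tfb2m was at -0.0104 with library totals alone and at -0.000626 with at least 50 counts in 2 libraries. The titles give the genotypes no shared number and no source says that the column-name numbers mark pairs. With a replicate block on those numbers, edgeR called 0 genes in all, mt-Nd4l was at -0.016 and mt-Ts1 at 0.052. The replicate differences correlated at 0.59 over the mitochondrial genes and 0.07 over all genes.

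Leaving out each library in turn moved estimates across 0 for 17 mitochondrial and 5 nuclear genes. The nuclear genes followed were only the listed ones named for the smallest p in their lists or always named, not all 297. For the rRNAs and mRNAs concerned, the log2 fold changes ran from -0.30 to 0.16 for mt-Rnr1, -0.015 to 0.24 for mt-Nd1, -0.0037 to 0.32 for mt-Nd2, -0.11 to 0.43 for mt-Co1, -0.15 to 0.32 for mt-Co2, -0.15 to 0.044 for mt-Atp6, -0.048 to 0.17 for mt-Co3, -0.30 to 0.63 for mt-Nd3, -0.76 to 0.65 for mt-Nd4l, -0.13 to 0.19 for mt-Nd4, -0.17 to 0.12 for mt-Nd5 and -0.12 to 0.35 for mt-Cytb. They ran from -1.33 to 0.95 for mt-Tl1, -1.02 to 0.75 for mt-Tq, -0.91 to 1.10 for mt-Ts1, -1.07 to 0.21 for mt-Te and -0.58 to 0.27 for mt-Tp among the tRNAs, and from -0.0087 to 0.22 for Mtpap, -0.14 to 0.23 for Sdhb, -0.0095 to 0.29 for Sdhd, -0.15 to 0.11 for Tfam and -0.081 to 0.14 for Tfb2m among nuclear genes. The complex III median, that of mt-Cytb alone, ran from -0.12 to 0.35, and was -0.12 without library 4.
With 2 libraries a group, a lone library was assumed to vary like the other group. Every count of mitochondrial calls stayed at 0 in these fits. mt-Nd3, mt-Nd4l, mt-Atp8 and most tRNAs are limited by low counts, with at most 145 counts for the mRNAs among them. The part of depth and of reads shared with nuclear copies in these low counts was not tested.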
